A study of Mus musculus with 7 samples.

Results

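Genes of regulatory T (Treg) cells and follicular regulatory T (Tfr) cells were followed in bulk RNA-seq of mouse spleen, as 10 genes taken by name from a deposited table of 54532 genes. They are Foxp3, Ikzf2, Ctla4, Tigit, Il2ra, Tnfrsf4, Tnfrsf18, Nt5e, Gpr83 and Il10. All 10 were in the table, each with 1 gene identifier, and all 10 passed the filter on low counts. The study asked how the Hippo kinase MST1 bears on follicular helper T (Tfh) cells. Its 7 libraries are labelled as Tfh cells in the spleen, with 4 libraries from mice of the genotype Mst1 knockout and 3 from WT mice. The titles write the knockout as Mst1∆CD4, and the driver of the deletion is otherwise not given in the sources used here. All mice, WT included, had been sensitised with ovalbumin (OVA) by the intraperitoneal route, and age and sex are not given in the sources used here. Each library is called a biological replicate, and nothing says whether animals were pooled.

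Treg cells are CD4 T cells that restrain other lymphocytes, and the transcription factor Foxp3 defines them. Tfr cells are Treg cells that take on features of Tfh cells, among them the receptor Cxcr5 and the factor Bcl6, enter B cell follicles and limit the germinal centre response. They hold back help through inhibitory receptors, through uptake of interleukin 2, through adenosine made outside the cell and through interleukin 10. Tfh and Tfr cells share Cxcr5 and PD-1, so a sort on these surface proteins can take up both.

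The libraries held between 16789158 and 18375275 counts. Stk4, which encodes MST1 in the mouse, lay between 287 and 302 CPM (counts scaled to library size with TMM) in knockout libraries and between 316 and 336 CPM in WT libraries, with a log2 fold change of -0.16 (SE 0.08, edgeR adjusted p = 0.225). The gene whose symbol is Mst1 encodes a different protein, macrophage stimulating 1, and lay between 0.828 and 1.85 CPM in knockout and between 7.81 and 11.8 CPM in WT libraries (log2 fold change -2.75, edgeR adjusted p = 0.000844). The counts are per gene, so reads outside a deleted part are counted too, as are reads from other cells. The part of either in the Stk4 level was not tested, and groups are named here by their labels. Transcripts of other cells were abundant. Summed neutrophil markers reached 8697 to 13423 CPM in knockout and 14113 to 17533 CPM in WT libraries. Those of monocytes and macrophages reached 7030 to 11741 CPM and 4885 to 8288 CPM. The summed level of 8 B cell markers was 1326 to 3211 CPM in knockout and 4036 to 5429 CPM in WT libraries, while that of 9 CD4 T cell markers was 82.8 to 162 CPM and 329 to 571 CPM. Summed over 10 Tfh markers, the level was 195 to 345 CPM in knockout and 501 to 585 CPM in WT libraries. No marker of the B cell, CD4 T cell and Tfh lists was at 0 in any library.

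The windows before the transcription starts of 5 of the genes, all lower in knockout libraries, are shown so that what they share in sequence can be read. They are all the windows of the 10 genes that meet no annotated UTR, and each holds the 250 bases before a RefSeq start (GRCm38.p6), 5′ to 3′ on the strand of the gene. Capitals mark exact matches to any of 6 short motifs searched on both strands. The letters searched for NFAT were GGAAA. Those for forkhead factors were GTAAACA, and those for STAT factors were TTCNNNGAA. AP-1 was searched as TGANTCA. RUNX was searched as TGTGGT, while the TATA box was searched as TATAAA.
Foxp3, chrX:7580233-7580482, plus strand: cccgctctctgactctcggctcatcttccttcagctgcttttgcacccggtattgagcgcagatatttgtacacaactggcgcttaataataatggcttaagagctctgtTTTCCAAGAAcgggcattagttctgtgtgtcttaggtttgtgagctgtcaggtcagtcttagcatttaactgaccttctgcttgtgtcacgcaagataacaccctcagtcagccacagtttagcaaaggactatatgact
Ctla4, chr1:60908775-60909024, plus strand: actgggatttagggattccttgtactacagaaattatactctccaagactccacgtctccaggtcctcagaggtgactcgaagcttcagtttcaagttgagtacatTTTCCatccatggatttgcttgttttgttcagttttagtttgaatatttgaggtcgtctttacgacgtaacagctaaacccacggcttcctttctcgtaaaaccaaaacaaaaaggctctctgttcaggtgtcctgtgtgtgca
Il2ra, chr2:11642542-11642791, plus strand: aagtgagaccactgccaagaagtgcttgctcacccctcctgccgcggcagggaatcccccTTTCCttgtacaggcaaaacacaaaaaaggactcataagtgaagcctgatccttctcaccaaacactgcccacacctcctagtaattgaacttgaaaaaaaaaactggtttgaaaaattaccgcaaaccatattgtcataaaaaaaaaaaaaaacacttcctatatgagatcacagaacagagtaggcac
Tigit, chr16:43664185-43664434, minus strand: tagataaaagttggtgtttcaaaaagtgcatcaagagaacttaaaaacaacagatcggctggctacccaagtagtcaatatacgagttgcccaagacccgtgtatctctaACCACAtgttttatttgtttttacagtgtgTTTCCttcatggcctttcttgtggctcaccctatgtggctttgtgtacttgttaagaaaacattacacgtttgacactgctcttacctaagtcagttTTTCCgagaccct
Gpr83, chr9:14859960-14860209, plus strand: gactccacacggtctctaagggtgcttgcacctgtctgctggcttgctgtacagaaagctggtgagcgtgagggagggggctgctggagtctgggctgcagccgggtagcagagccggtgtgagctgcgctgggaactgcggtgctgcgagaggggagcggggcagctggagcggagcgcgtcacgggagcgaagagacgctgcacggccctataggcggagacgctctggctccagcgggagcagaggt

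RefSeq gives 2 windows for Foxp3, and the one shown lies inside the gene span given below, past its start at 7579676. The other ends at 7579675, directly before that start, and meets an annotated UTR. It holds a TATA box match 32 and an NFAT match 205 bases before its RefSeq start. In the one shown, an NFAT match 140 bases before the start overlaps a STAT match in a single capital run. The Ctla4 window, also inside its gene span given below, holds an NFAT match 144 bases before the RefSeq start. The Il2ra window holds one 190 bases before its start. In the Tigit window a RUNX match lies 140 bases before the start and NFAT matches lie 110 and 13 bases before it. None of the 6 motifs was found in the Gpr83 window, which is 66.8% G and C, against 40% to 46% in the other windows shown. The RefSeq table held 9 windows for 8 of the 10 genes. GGAAA was found in 7 of these 9 and in 55.6% of all 32851 windows, and TTCNNNGAA in 2 of the 9 and 7.02% of all. RUNX and the TATA box were each found in 1 of the 9, against 14% and 12.4% of all windows. The forkhead and AP-1 motifs were found in 0 of the 9, against 3.17% and 6.75% of all windows. A match describes these letters and is not a measured binding site.

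In knockout libraries 9 of the 10 genes fell and none rose, and Il10 did not pass the test. Of all 15795 genes tested, 6.83% were called lower and 8.71% higher (edgeR quasi-likelihood test, Benjamini-Hochberg adjusted p under 0.05). The median log2 fold change, knockout over WT, was -1.29 over the 10 genes and -0.0019 over all genes tested. Knockout and WT levels did not overlap for the same 9 genes, all lower in knockout. Of all genes tested, 14.7% were apart in that direction and 15.4% were apart with knockout higher. All 9 CD4 T cell markers fell in the same libraries and all 8 erythroid markers rose, to 618 to 1407 CPM in sum in knockout, against 131 to 173 CPM in WT libraries. The part of the erythroid cells in these values was not tested. In such bulk samples fewer cells of a type and less RNA per cell cannot be told apart. The count of lower genes was 5 without WT replicate 2 and 6 to 9 with any other library left out.

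**Figure D1:**
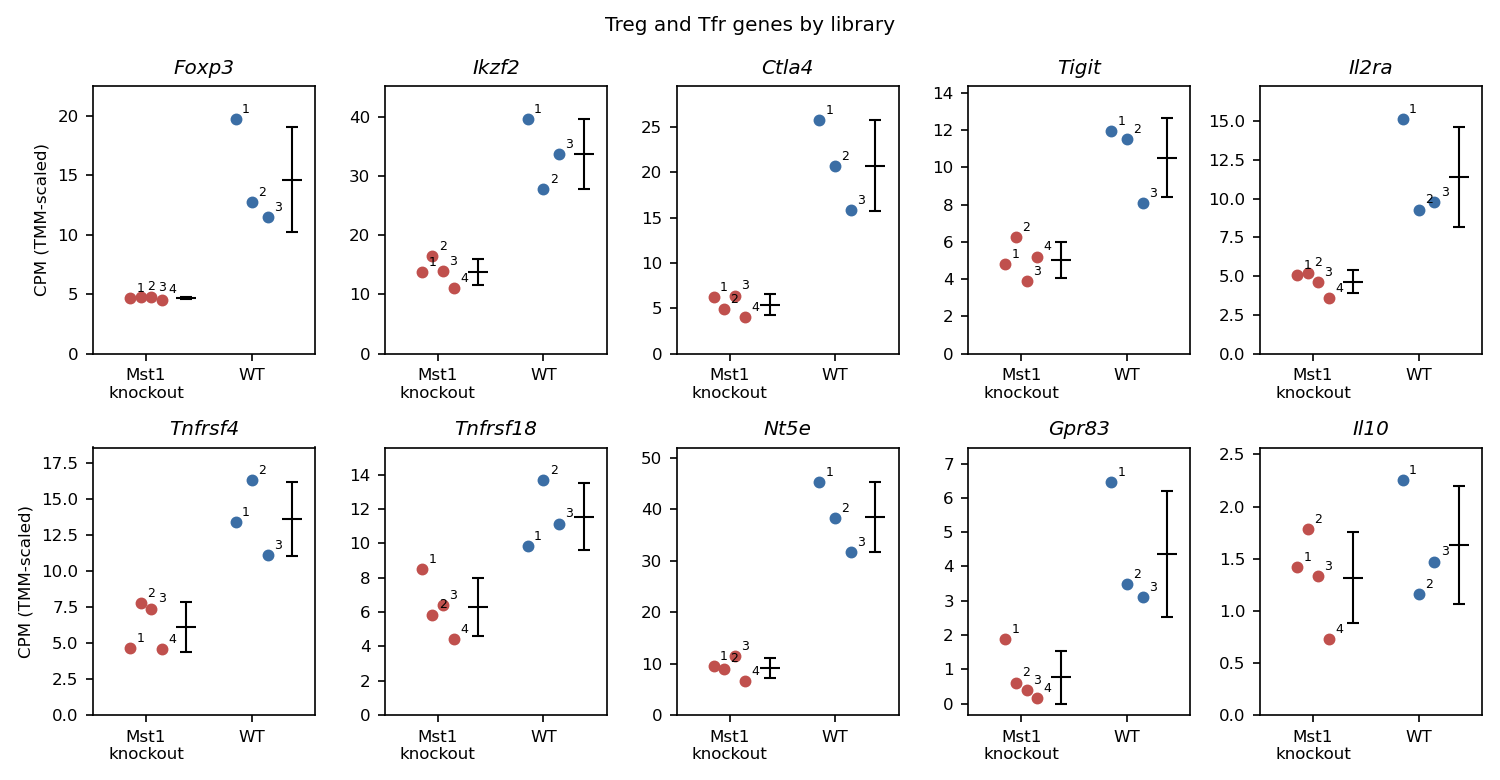
Level of each gene in CPM (TMM-scaled, linear axis) in the 4 Mst1 knockout libraries (red) and the 3 WT libraries (blue), with replicate numbers beside the points and the mean ± SD as bars. Foxp3 sits between 4.54 and 4.79 CPM in knockout and between 11.5 and 19.7 CPM in WT libraries, and Il10 is the gene whose groups overlap.

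Both transcription factors of the set fell. Foxp3 (ENSMUSG00000039521, chromosome X, 7579676 to 7595243, plus strand), without which Treg cells do not form, had 4.67, 4.79, 4.73 and 4.54 CPM in knockout replicates 1 to 4, against 19.7, 12.7 and 11.5 CPM in WT replicates 1 to 3. The knockout libraries lay close together and the WT libraries spread, with replicate 1 highest. Foxp3 fell by 1.64 on the log2 scale (SE 0.21, edgeR adjusted p = 0.00188), to 0.32 of the WT level. The strand setting of the counting is not given in the sources used here, and the noncoding genes Flicr and Gm36995 overlap Foxp3. Flicr, a noncoding RNA known in mouse Treg cells to lower Foxp3 expression, had 2, 8, 3 and 13 counts in knockout and 21, 7 and 6 counts in WT libraries, where Foxp3 had 79 to 86 and 203 to 323 counts. Ikzf2 (chromosome 1, 69531214 to 69687245, minus strand) encodes Helios, a zinc finger factor that stabilises the Treg program. Its level was 13.8, 16.5, 13.9 and 11 CPM in knockout libraries, against 39.6, 27.7 and 33.7 CPM in WT libraries. All knockout libraries lay below all WT libraries, and Ikzf2 fell by 1.29 (SE 0.17, edgeR adjusted p = 0.00225).

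The inhibitory receptors also fell. Ctla4 (chromosome 1, 60887000 to 60915832, plus strand) encodes the receptor that removes and blocks CD80 and CD86 on antigen-presenting cells. It had 6.21, 4.9, 6.4 and 3.98 CPM in knockout libraries, against 25.7, 20.7 and 15.8 CPM in WT libraries. That was a fall to 0.259 of the WT level, by 1.95 on the log2 scale (SE 0.22, edgeR adjusted p = 0.00143). Tigit (chromosome 16, 43648867 to 43664146, minus strand) encodes a receptor for the poliovirus receptor that natural killer cells carry too. It stood at 4.79, 6.23, 3.9 and 5.21 CPM in knockout libraries, against 12, 11.5 and 8.09 CPM in WT libraries. The groups did not overlap, and Tigit fell by 1.06 (SE 0.22, edgeR adjusted p = 0.0136). Its adjusted p was 0.0515 without WT replicate 1 and 0.0583 without WT replicate 2.

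Il2ra (chromosome 2, 11642807 to 11693193, plus strand) encodes CD25, the chain that gives the interleukin 2 receptor its high affinity. Its level was 5.08, 5.23, 4.62 and 3.58 CPM in knockout libraries, against 15.1, 9.29 and 9.79 CPM in WT libraries. Il2ra fell by 1.30 (SE 0.23, edgeR adjusted p = 0.00739), with every knockout library below every WT library. Tnfrsf4 and Tnfrsf18 encode OX40 and GITR, co-stimulatory receptors of the TNF receptor family that Treg cells carry at rest and other T cells gain on activation. They are neighbours on chromosome 4 on the plus strand, at 156013843 to 156016612 and 156026164 to 156028895, with 9551 bases between them. Tnfrsf4 had 4.67, 7.79, 7.4 and 4.59 CPM in knockout libraries, against 13.4, 16.3 and 11.1 CPM in WT libraries. It fell by 1.15 (SE 0.24, edgeR adjusted p = 0.0151, and 0.0689 without WT replicate 2). For Tnfrsf18 the values were 8.51, 5.84, 6.4 and 4.43 CPM in knockout libraries, against 9.82, 13.7 and 11.1 CPM in WT libraries. In proportion to the level, the gap between the groups was the narrowest of the 9 genes, from 8.51 CPM in knockout replicate 1 to 9.82 CPM in WT replicate 1. Tnfrsf18 fell by 0.88 (SE 0.23, edgeR adjusted p = 0.0344). The adjusted p ran from 0.056 to 0.135 in 5 of the 7 fits that left out a library, the exceptions being those without knockout replicate 1 and without knockout replicate 4.

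Nt5e (chromosome 9, 88327197 to 88372092, plus strand) encodes CD73, the surface enzyme that makes adenosine from AMP, which Treg, Tfh and B cells can carry. It had 9.58, 9.02, 11.5 and 6.55 CPM in knockout libraries, against 45.4, 38.3 and 31.7 CPM in WT libraries. Nt5e had the smallest adjusted p of the 10 genes, with a log2 fold change of -2.07 (SE 0.2, edgeR adjusted p = 0.000578). Gpr83 (chromosome 9, 14860210 to 14870789, plus strand) encodes a G protein-coupled receptor enriched in mouse Treg cells. Its counts were 32, 11, 7 and 3 in knockout libraries, against 106, 60 and 55 in WT libraries, or 1.89, 0.612, 0.39 and 0.168 CPM against 6.47, 3.48 and 3.11 CPM. Gpr83 was the lowest in level per length of the 10 genes and its knockout libraries spread widely, with replicate 1 highest. It fell by 2.51 (SE 0.64, edgeR adjusted p = 0.033), with a 95% interval from -3.97 to -1.05. Without knockout replicate 1 the log2 fold change was -3.45 (edgeR adjusted p = 0.00459). The call was lost without WT replicate 1, 2 or 3 and without knockout replicate 2 or 3 (adjusted p from 0.0633 to 0.108), and with no filter on low counts (adjusted p = 0.0718).

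Il10 (chromosome 1, 131019845 to 131024974, plus strand) encodes the anti-inflammatory cytokine interleukin 10, which B cells, macrophages and several kinds of T cell can make. It had 24, 32, 24 and 13 counts in knockout libraries, against 37, 20 and 26 counts in WT libraries. In CPM these were 1.42, 1.78, 1.34 and 0.728 in knockout libraries, against 2.26, 1.16 and 1.47 in WT libraries. The groups overlapped, and the log2 fold change was -0.30 (SE 0.37, edgeR adjusted p = 0.618). Its 95% interval, from -1.15 to 0.54, holds the values of Tigit and Tnfrsf18, so a fall of that size is not excluded.

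Levels of different genes were set side by side per length, as deposited FPKM (fragments scaled to gene length and library size). In knockout libraries the order of mean FPKM was Tigit at 5.42 ± 1.05, Tnfrsf4 at 4.44 ± 1.26, Tnfrsf18 at 4.09 ± 1.12 and Ctla4 at 2.28 ± 0.5 (SD, n = 4). Ikzf2, Foxp3, Nt5e, Il10 and Il2ra followed between 0.803 and 1.18 FPKM, and Gpr83 stood at 0.149 ± 0.15 FPKM. In WT libraries the order was Tigit at 11.3 ± 2.24, Tnfrsf4 at 9.88 ± 1.87, Ctla4 at 8.8 ± 2.08 and Tnfrsf18 at 7.51 ± 1.3 FPKM (SD, n = 3). Nt5e at 4.42 ± 0.77 and Foxp3 at 3.63 ± 1.08 FPKM came next, and Ikzf2, Il2ra, Il10 and Gpr83 lay between 0.845 and 2.87 FPKM. Neighbours whose libraries did not overlap were few. In knockout libraries they were Tnfrsf18 over Ctla4, Ctla4 over Ikzf2 and Il2ra over Gpr83, and in WT libraries Tnfrsf18 over Nt5e. Tnfrsf18 stood above Ctla4 in knockout and below it in WT libraries, where the libraries of both genes overlapped.

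T cell receptor genes, all but Trbc1 also in the list of CD4 T cell markers above, fell in the same libraries. Cd3d, Cd3e, Cd3g, Trac, Trbc1 and Trbc2, which encode the CD3 chains and the constant regions of the receptor, fell in all 6 cases, with log2 fold changes from -2.11 to -1.73. Their summed counts were 2181, 1379, 1564 and 972 in knockout libraries, against 7312, 5921 and 4459 in WT libraries, or 86.8 ± 31.2 CPM (n = 4) and 347 ± 97 CPM (n = 3). The 10 genes were therefore also read per 1000 counts of these 6 genes, which sets each gene against T cell transcripts of the same library. Other cells can add to the counts of a gene on this scale too. All edgeR tests on this scale came from a fit to the whole table. In that fit 93.7% of all genes tested were higher and 0.108% lower in knockout libraries. With so many genes called, adjustment changed p-values little, from 0.0248 to 0.027 for Tigit (edgeR).

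Per T cell receptor count, 3 of the 10 genes were higher in knockout libraries, none was lower and 7 did not pass. Of all genes tested, 93.7% were higher. The change of reference moved all genes by nearly the same amount. A share of higher genes below that of all genes therefore follows from the falls per library and is no separate result. The 3 were Il10, Tnfrsf18 and Tigit. On this scale the median log2 fold change was 2.06 over all genes tested, above that of each of the 3, and 0.76 over the 10 genes. Il10 stood at 11, 23.2, 15.3 and 13.4 per 1000 in knockout libraries, against 5.06, 3.38 and 5.83 in WT libraries (log2 fold change 1.72, SE 0.6, edgeR adjusted p = 0.00468). Tnfrsf18 had 66, 76.1, 73.5 and 81.3 per 1000 in knockout libraries, against 22, 39.9 and 44.2 in WT libraries, and was higher by 1.07 (SE 0.47, edgeR adjusted p = 0.024). Tigit had 37.1, 81.2, 44.8 and 95.7 per 1000 in knockout libraries, against 26.8, 33.4 and 32.1 in WT libraries, and was higher by 1.06 (SE 0.47, edgeR adjusted p = 0.027). On this scale 4 genes had groups that did not overlap, these 3 and Il2ra, all higher in knockout. Of all genes tested, 88.5% were apart in that direction and 0.076% were apart with knockout lower. The number of calls depended on single libraries. Higher genes numbered 1 without knockout replicate 2, WT replicate 1 or WT replicate 2, and 6 without knockout replicate 1, where Gpr83 was lower (log2 fold change -1.22, edgeR adjusted p = 0.0477). The call of Il10 held in all 7 fits that left out a library. That of Tigit was lost in 5 of them (adjusted p from 0.0504 to 0.0994), all but those without knockout replicate 1 or 3. That of Tnfrsf18 was lost in the 3 where 1 gene was higher. With a second reference of 7 T cell genes, Il10 was the 1 gene higher (log2 fold change 1.22, edgeR adjusted p = 0.0154) and Gpr83 was lower (log2 fold change -1.03, edgeR adjusted p = 0.0314).

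**Figure D2:**
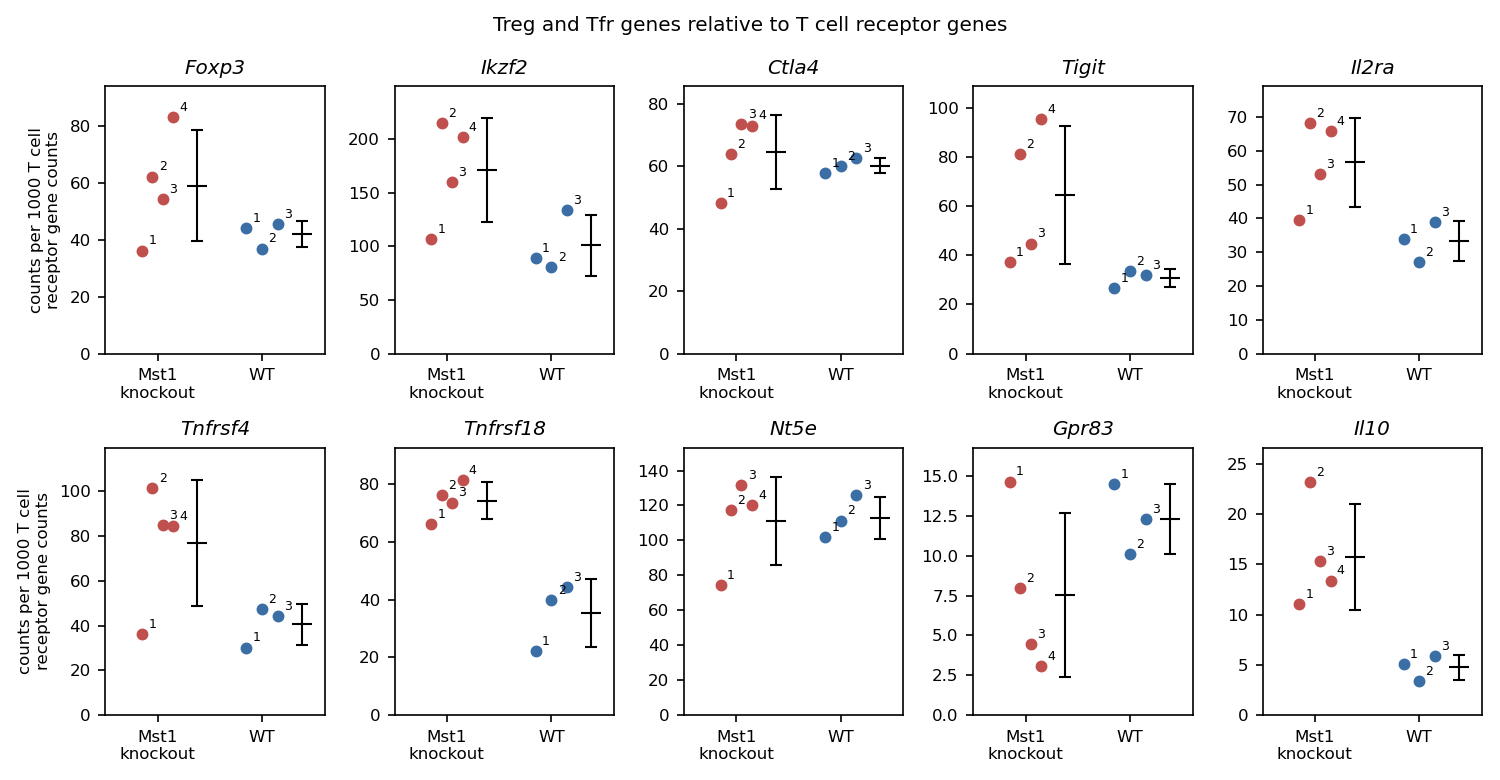
Counts of each gene per 1000 counts of 6 T cell receptor genes (linear axis) in the 4 Mst1 knockout libraries (red) and the 3 WT libraries (blue), with replicate numbers and the mean ± SD. Foxp3, Ctla4 and Nt5e overlap between the groups, and all knockout libraries lie above all WT libraries for Tnfrsf18, Tigit, Il2ra and Il10.

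Foxp3, Ctla4 and Nt5e overlapped between the groups on the T cell scale. Foxp3 had 36.2, 62.4, 54.3 and 83.3 per 1000 in knockout libraries, against 44.2, 37 and 45.5 in WT libraries. The knockout libraries, nearly equal in CPM, spread on this scale, with replicate 1, which had the most T cell receptor counts of the 4, lowest and replicate 4, which had the fewest, highest. Its log2 fold change was 0.48, with a 95% interval from -0.43 to 1.39 (edgeR adjusted p = 0.312). For Ctla4 the values were 48.1, 63.8, 73.5 and 73 in knockout libraries, against 57.7, 60.1 and 62.6 in WT libraries, with a log2 fold change of 0.10 (interval -0.79 to 0.99, edgeR adjusted p = 0.827). Nt5e had 74.3, 117, 132 and 120 per 1000 in knockout libraries, against 102, 111 and 126 in WT libraries, with a log2 fold change of -0.03 (interval -0.87 to 0.82, edgeR adjusted p = 0.951). These intervals hold changes in either direction, so equal levels per T cell transcript are not shown. Ikzf2 at 0.76, Il2ra at 0.76 and Tnfrsf4 at 0.92 did not pass (edgeR adjusted p from 0.0505 to 0.111), nor did Gpr83 at -0.65 (edgeR adjusted p = 0.268).

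**Figure D3:**
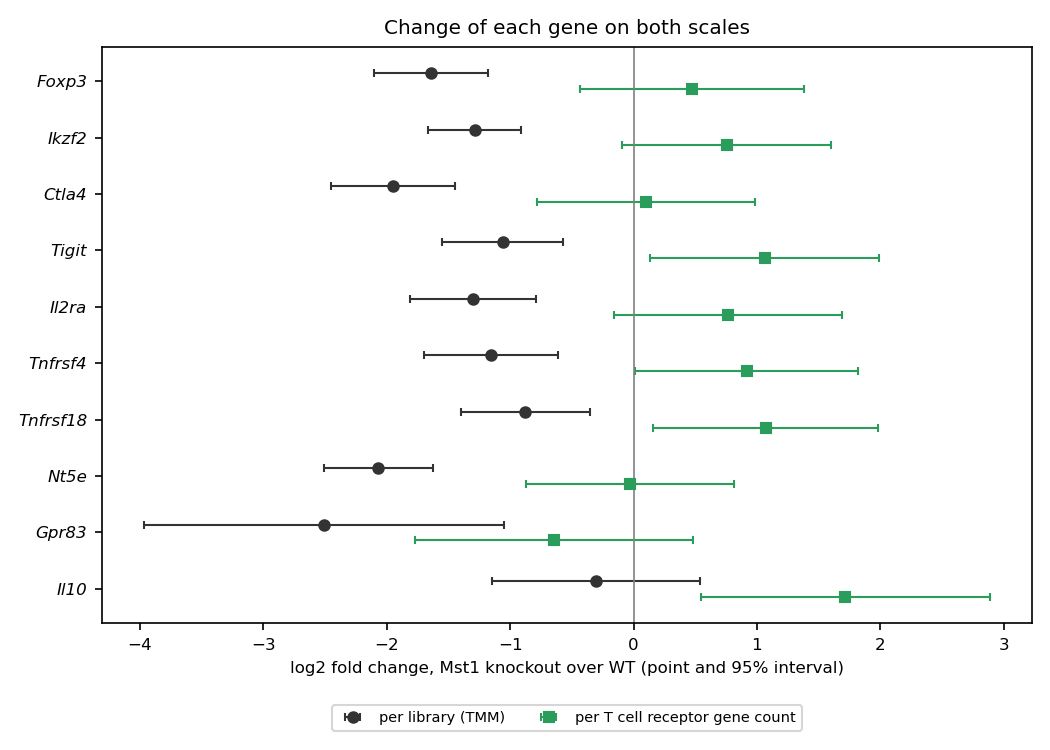
Log2 fold change of each gene, Mst1 knockout over WT, with its 95% interval, per library (black circles) and per T cell receptor gene count (green squares). The 10 black points lie between -2.51 and -0.30, and the green points lie between -0.65 and 1.72.

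Ratios of a gene to a functional partner were taken within each library, which removes the scaling altogether. The mix of cells is not removed, since the 2 genes can come from different cells. The difference of log2 ratios was tested over the 35 splits of 7 libraries into 4 and 3 (two-sided exact permutation test, smallest possible p 0.0286), and p-values were adjusted over the 7 ratios. None passed after adjustment. A ratio at the smallest possible p could pass only if most of the other ratios reached it too. The lack of a pass therefore says nothing about the size of a single difference. Nt5e was set against Entpd1, which encodes CD39, the enzyme that makes the AMP that CD73 takes up. The ratio was 0.0923, 0.105, 0.148 and 0.1 in knockout libraries, against 0.645, 0.587 and 0.509 in WT libraries, lower in all 4 knockout libraries (log2 difference -2.39, exact permutation p = 0.0286, adjusted p = 0.1). Entpd1 itself had 83 ± 16.1 CPM in knockout (n = 4) and 66 ± 4.03 CPM in WT libraries (n = 3), and did not pass the edgeR test (adjusted p = 0.157). Per T cell receptor count the log2 fold change was 2.34 for Entpd1 and -0.03 for Nt5e. The part of the cell mix in this ratio was not tested. Ikzf2 to Ikzf1, the family member that most leukocytes express, also lay lower in all 4 knockout libraries (log2 difference -1.17, exact permutation p = 0.0286, adjusted p = 0.1).

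The other ratios differed by less. Ctla4 to Cd28, receptors that compete for the same ligands, was 0.457, 0.398, 0.453 and 0.265 in knockout libraries, against 0.486, 0.618 and 0.494 in WT libraries (log2 difference -0.46, exact permutation p = 0.0857, adjusted p = 0.15). Il2ra to Il2rb had a log2 difference of -0.56 (exact permutation p = 0.0571, adjusted p = 0.133), and its groups did not overlap either. Tigit to Cd226, an activating receptor for the same ligand, differed by -0.56 (exact permutation p = 0.286, adjusted p = 0.4), with overlapping groups. Tnfrsf18 to Tnfrsf4 differed by 0.28 (exact permutation p = 0.571, adjusted p = 0.667). Foxp3 to Cd4 was 0.152, 0.202, 0.18 and 0.276 in knockout libraries, against 0.203, 0.166 and 0.187 in WT libraries (log2 difference 0.10, exact permutation p = 0.771, adjusted p = 0.771).

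Of 20 ligands, receptor chains and family members that work with these genes, 18 were tested, 5 fell, 2 rose and 11 did not pass. Their median log2 fold change was -0.34. Of all genes tested, 6.83% fell and 8.71% rose, with a median of -0.0019. The 5 that fell were Cd28, by 1.52, Icos, by 1.70, Il2rb, by 0.73, Ikzf3, by 0.87, and Ikzf4, by 2.12. Cd28 and Icos lie on either side of Ctla4 on chromosome 1, and Ikzf4 encodes Eos, a partner of Foxp3 in gene repression. Ikzf4 had 0.921 ± 0.242 CPM in knockout (n = 4) and 4.03 ± 1.49 CPM in WT libraries (n = 3, edgeR adjusted p = 0.00494). The 2 that rose were Nectin2 and Adora2b. Nectin2, a further ligand of TIGIT that myeloid and other cells carry, stood at 2.66 ± 0.631 CPM in knockout and 0.585 ± 0.0544 CPM in WT libraries (edgeR adjusted p = 0.00333). Adora2b, an adenosine receptor, stood at 12.5 ± 1.88 CPM in knockout and 6.62 ± 0.14 CPM in WT libraries (edgeR adjusted p = 0.00883). Il2 and Tnfsf18 were too low to test, Il2 with 0 to 3 counts in knockout libraries and 0 to 5 in WT libraries. The number of lower partners was 3 without knockout replicate 2, WT replicate 1 or WT replicate 2.

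Among 25 factors that act on or with Foxp3, 7 fell, 1 rose and 17 did not pass, with a median log2 fold change of -0.10. The shares over all genes tested were 6.83% lower and 8.71% higher, with a median of -0.0019. Gata3 fell by 1.5, Bach2, a repressor that favours Treg formation, by 1.32, and Foxo1, which drives Foxp3 transcription, by 1.04. Nr4a1 fell by 1.02, Ets1 by 0.99, Nfatc1 by 0.66 and Rel, which is needed for Foxp3 induction, by 0.50. B cells express several of these, among them Bach2, Ets1, Foxo1 and Rel. The summed level of the 8 B cell markers above was lower in the same libraries. All 8 had log2 fold changes below 0, and 2 of them passed the test. The part of B cells in these values was not tested. Stat5a, which carries the interleukin 2 signal to Foxp3, rose to 79.3 ± 7.86 CPM in knockout (n = 4), against 62.6 ± 1.61 CPM in WT libraries (n = 3), with an edgeR adjusted p of 0.0469. That call was lost with each of 3 other scalings and in 6 of the 7 fits that left out a library, all but the one without knockout replicate 1. The count of lower factors was 2 without WT replicate 2, 3 without knockout replicate 2 or WT replicate 1, and 4 without WT replicate 3.

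A further 30 genes of Treg and Tfr cells were read beside the 10, of which 11 fell, 2 rose and 17 did not pass. The median log2 fold change was -0.57. The shares over all genes tested were 6.83% lower and 8.71% higher, with a median of -0.0019. Izumo1r, which encodes folate receptor 4, a surface marker of mouse Treg and Tfh cells, fell by 2.49 to 5.34 ± 2.19 CPM in knockout (n = 4), against 30.1 ± 7.43 CPM in WT libraries (n = 3). Itgb8 and Lrrc32, whose products activate and display latent TGF-β on Treg cells, fell by 2.42 and 2.06 (edgeR adjusted p = 0.015 each). The chemokine receptor gene Ccr4 fell by 2.12, Cd5 by 1.53, Bcl6 by 0.95 and Irf4 by 0.68. The 2 that rose were Itgae, an integrin gene that dendritic cells also express, by 1.06, and Nrp1, which myeloid and endothelial cells also express, by 0.76. Nrp1 lay outside the rule for named genes and was chosen after its values were seen. Tgfb1, the gene of latent TGF-β itself, had 269 ± 30.7 CPM in knockout and 254 ± 12.6 CPM in WT libraries (edgeR adjusted p = 0.64), also chosen after its values were seen. The count of lower genes was 5 without WT replicate 2, and that of higher genes 1 without WT replicate 2 or 3 and 5 without knockout replicate 3.

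**Figure D4:**
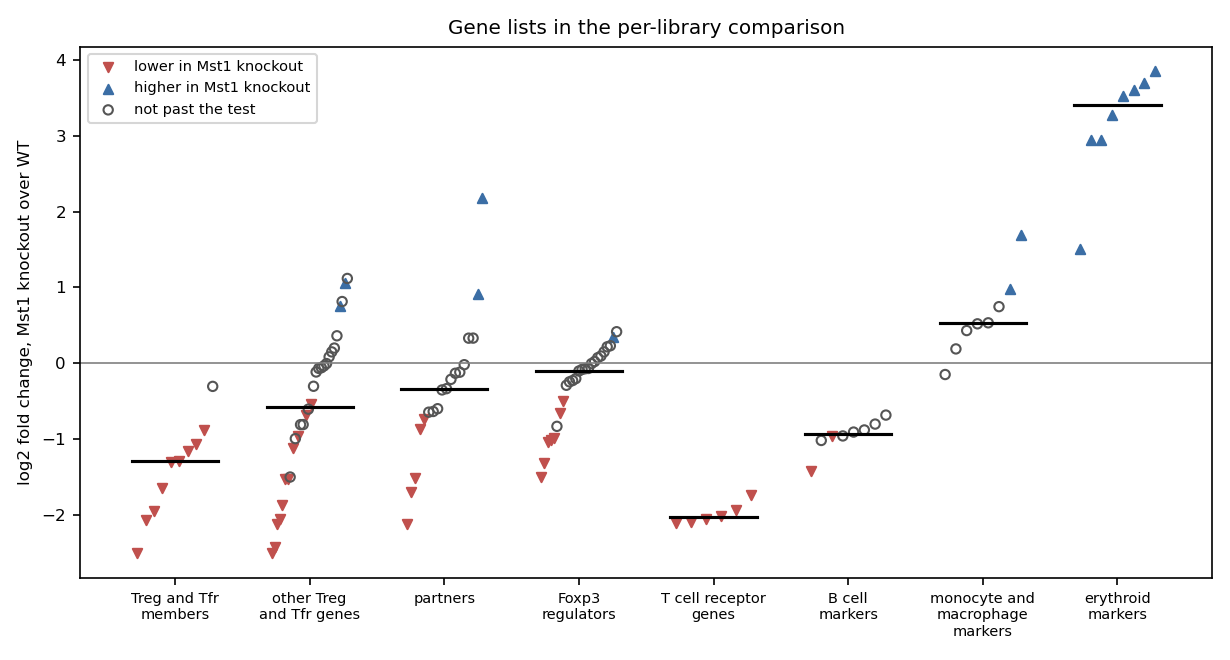
Log2 fold change per library, Mst1 knockout over WT, of each tested gene in 8 lists, sorted within a list, with filled triangles for genes past the test (red, lower; blue, higher), open circles for the rest and a bar at the list's median. The 10 Treg and Tfr genes have a median of -1.29, the T cell receptor genes one of -2.03 and the erythroid markers one of 3.40.

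Foxp3 was compared with all other tested genes of at least 1 CPM by the root mean square difference of log2 CPM over the 7 libraries, after each gene was centred on its own mean. The 5 nearest genes were Cd28 at 0.11, Thy1 at 0.14, Gm37387 at 0.14, Cd5 at 0.17 and Sla2 at 0.20 log2 units. Of these, Cd28, Thy1 and Cd5 encode surface proteins of T cells and Sla2 an adaptor of antigen receptor signalling. Among the 10 genes themselves, Il2ra at 0.22, Ikzf2 at 0.25 and Ctla4 at 0.27 were nearest to Foxp3. Gpr83 at 0.94 and Il10 at 0.72 were farthest.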

How the data were processed

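Each of the 7 libraries has, per the file headers, a column of counts and a column of FPKM in the deposited table. The counts are whole numbers with no normalization by the authors, and the FPKM values were deposited already scaled to gene length and library size. The submitters' processing notes name the build GRCm38 (mm10). Aligner, counter, annotation and strand setting are not given in the sources used here. A further 5 columns hold the authors' own comparison, which stayed unused.

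Counts were fitted with edgeR 4.0.16 in R 4.3.3 (TMM, filterByExpr defaults, robust quasi-likelihood F-test, genotype the only term), with Benjamini-Hochberg adjustment over 15795 genes. The T cell scale used the same fit with the log of the summed counts of 6 T cell receptor genes as offset, and comparing its values library by library was chosen after seeing the data. Ratios used counts plus 0.5. On simulated counts of 15795 genes, the fit per library recovered 73% of changes of 1 log2 unit and 99% of changes of 2, with 7 false calls. The T cell scale recovered 8% and 82%, with 5 false calls. The simulation changed few of its genes, all above 1 on the log2 CPM scale, a level that Il10 did not reach. In the real fits 15.5% of genes were called per library and 93.7% were called higher on the T cell scale. The simulated rates therefore do not carry over to either fit. P-values measure the spread between these libraries. Replicate pairs differed by 21.7 to 67.1 times counting noise (chi-square per gene), so no library was counted as a copy.

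Members, gene lists and naming rule were chosen with earlier results of these data known. Named were all 10 genes, up to 8 called genes of each list by smallest p, the T cell reference and the 5 genes nearest to Foxp3. Alternatives were DESeq2 1.42.0, limma 3.58.1 (voom with quality weights), 3 further scalings, 2 further filters, edgeR without robust estimation, the replicate number as a block, a second T cell reference and fits leaving out 1 library at a time.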

Additional observations from a re-analysis of the deposited data

How the results depend on the processing

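The 9 genes that fell kept their direction in all 16 alternatives to the fit per library, and Il10 moved from -0.50 to 3.5e-05, its positive value being that without WT replicate 1. With a library left out, the count of lower genes ran from 5 to 9, that of partners from 3 to 5, that of Foxp3 regulators from 2 to 8 and that of other Treg and Tfr genes from 5 to 11. Higher Foxp3 regulators numbered 0 with the 3 other scalings, 2 with DESeq2 or limma-voom, 0 with the replicate block and 0 to 2 with a library left out. Higher genes among the other Treg and Tfr genes numbered 4 with DESeq2, 5 with limma-voom and 1 to 5 with a library left out. On the T cell scale, higher genes numbered 5 with DESeq2, 7 with limma-voom, 6 with the replicate block, 1 with the second reference and 1 to 6 with a library left out, and lower genes 1 with the second reference and 0 to 1 with a library left out. There Foxp3 came to -0.057 and Ctla4 to -0.41 with the second reference, and Nt5e to -0.54 with it, to 0.12 with limma-voom and between -0.12 and 0.13 with a library left out. The causes of these changes were not tested, and the fits with a library left out also held fewer libraries. The labels share replicate numbers between the groups, and nothing in the sources used here says whether same-numbered libraries were paired. Their deviations correlated between -0.05 and 0.16, against -0.27 to 0.32 for other pairs of a knockout and a WT library. Not every library was nearest to its own number. So few libraries cannot show whether a pairing or a shared batch was present. With the replicate block 8 of the 10 genes were lower, Tnfrsf18 having an adjusted p of 0.08. Among the 10 genes, Il10 and Gpr83 had the fewest counts and so the least precise values, and Il2 and Tnfsf18 had too few counts to be tested.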

Other observations

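Markers of other cells moved with the labels in both directions. For these lists and the lymphoid lists below, the shares over all genes tested were 6.83% lower and 8.71% higher. All 8 erythroid markers rose, with a summed level of 618 to 1407 CPM in knockout and 131 to 173 CPM in WT libraries. Of 8 monocyte and macrophage markers 2 rose and none fell, with 7030 to 11741 CPM in knockout and 4885 to 8288 CPM in WT libraries. Of 8 neutrophil markers 4 fell and none rose, with 8697 to 13423 CPM in knockout and 14113 to 17533 CPM in WT libraries. Of 8 dendritic cell markers 1 fell and 2 rose, with 195 to 297 CPM in knockout and 252 to 315 CPM in WT libraries. Of 5 tested megakaryocyte and platelet markers 2 rose, with sums of 28.6 to 39.3 CPM in knockout and 17.2 to 20.3 CPM in WT libraries, and Gp1bb was at 0 in all but 1 library. Of 6 basophil, mast cell and type 2 innate cell markers 1 rose, with 241 to 751 CPM in knockout and 165 to 268 CPM in WT libraries.

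Among lymphoid lists, all 9 CD4 T cell markers fell, 8 of 10 Tfh markers fell and 2 of 8 B cell markers fell, with none higher. The lists share genes, so they are not separate observations. Icos is in both the CD4 T cell and the Tfh list. Cd3d, Cd3e, Cd3g, Trac and Trbc2 are CD4 T cell markers and T cell receptor genes of the reference. Of 7 plasma cell markers 2 fell, with 1106 to 3183 CPM in knockout and 1564 to 2722 CPM in WT libraries. Of 8 CD8 T and natural killer markers 2 fell, with 106 to 186 CPM in knockout and 136 to 273 CPM in WT libraries. Of the 7 genes in the second T cell reference 6 fell, with a median log2 fold change of -1.55, against -2.03 for the 6 T cell receptor genes. The part of these cells in the values of the Treg and Tfr genes was not tested.

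At the Foxp3 locus, the coding gene Ccdc22, which overlaps the end of Foxp3 on the other strand, was listed at 0 counts in all 7 libraries. Gm36995, which spans the locus on that strand, had 11, 8, 11 and 16 counts in knockout libraries, against 4, 10 and 8 counts in WT libraries.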
